A study of Mus musculus with 16 samples.

Results

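Of 1317 cells of the pubertal mouse mammary gland kept after filtering, 301 were basal (101 from the nipple, 123 from ducts and 77 from terminal end buds, TEBs). Their expression was set against 441 ER+ and 203 ER- luminal cells of the same fragments. A cell was taken as basal where its mean z-score over *Krt5*, *Krt14*, *Krt17*, *Acta2* and *Mylk* was higher than that over the markers of ER+ luminal, ER- luminal, fibroblast, myeloid or endothelial cells. The z-scores came from log-normalised counts per 10000 UMIs (unique molecular identifiers, each counting 1 captured molecule). The cells were thus chosen by measured values, the levels of these markers. For this reason a difference between basal and luminal cells is given here as a description, and tests are given only for differences between locations in genes outside the marker lists. The median margin to the next class was 1.66 z units, and for 206 of the 301 cells the next class was endothelial. Of the basal cells, 6 had a margin under 0.1, the smallest being 0.0204, and 7 cells of other classes came within 0.1 of being basal, the closest at 0.00228. A margin under 0.5 was found in 41 basal cells, 5 from the nipple, 5 from ducts and 31 from TEBs.

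The cells came from single dissected fragments of C57BL/6 mammary gland, 4 nipples, 6 ducts and 6 TEBs. The labels give no age. A figure legend of the study gives 5 weeks and its methods 5 to 6 weeks. The study describes these mice in a figure legend as *K14-Cre/R26-mTmG*, in which a keratin 14 promoter drives Cre and Cre changes the color of a reporter. Its methods give that genotype or wild type. The labels do not give the genotype of each fragment. No treatment was named for any group. The fragments were dissociated, and single cells were sorted into wells with lysis buffer, barcoded primers and ERCC RNA as a spike-in. The labels do not name the mouse of each fragment, so that a p-value measures the spread between fragments, which may in part be technical.

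The mammary epithelium is a bilayer. Luminal cells line the lumen and fall into cells that carry the estrogen receptor (ER+) and cells that do not (ER-), whereas basal cells lie outside them, touch the basement membrane and contract like smooth muscle to eject milk under oxytocin. At puberty the ducts grow from TEBs at their tips, the nipple end being the oldest part of the tree. Basal cells are known for keratins 5 and 14, smooth muscle actin and myosin, the transcription factor p63 and the integrins and laminins that hold them to the membrane they help to build.

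The deposited table held 17721 genes and 1856141 to 5233122 UMIs per fragment, and each of its 95 well barcodes was used in more than 1 fragment, with 0 cells whose counts equalled those of another. Counts were summed over the basal cells of each fragment (6 to 32 cells, 302813 to 1210315 UMIs), and levels are given as CPM, the counts scaled to 1000000 UMIs of such a sum. Basal cells of TEBs were the deepest, with 43075 ± 11527 UMIs per cell (mean of fragment medians ± SD, n = 6) against 25360 ± 7996 in ducts (n = 6) and 21727 ± 3396 in the nipple (n = 4). The adjusted p of exact permutation tests, two-sided over 6 comparisons, was 0.0229 for nipple against TEB and 0.0162 for duct against TEB, and their spike-in share was the lowest, at 0.633% against 0.897% and 1.40%. The part of depth in the results below was checked by thinning each cell to 5000 UMIs, which is given where a call was lost. Thinning left 2265 genes to test across locations, against 7185 at full depth. For a gene with few UMIs, no mention of thinning thus does not show that its call was kept.

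Basal cells made up 25.6% to 33% of the kept cells of a nipple fragment, 19.5% to 36.8% of a duct and 7.06% to 34.3% of a TEB. The cells were checked against the basal markers and against marker lists of other cells. At least 10 UMIs of *Krt5* or *Krt14* were found in 261 of the 301 cells (96 nipple, 115 duct and 50 TEB) and at least 10 of *Acta2* in 287. All 5 rule markers had a UMI in 195 cells (63 nipple, 107 duct and 25 TEB). Of the 301 cells, 13 had no UMI of *Krt5* or *Krt14* (9 of them from TEBs) and 17 held more UMIs of a pericyte list than of these keratins (5, 6 and 6), 8 cells being in both counts. The summed level of the pericyte list was 0 to 682 CPM over the fragments, that of a myeloid list 30.2 to 152 CPM, that of an endothelial list 0 to 51.5 CPM and that of mast cell genes 0 to 54.0 CPM. Genes of the suprabasal epidermis summed to 20.1 to 129 CPM and those of Schwann cells to 0 to 51.4 CPM. Fibroblast genes differed by location, at 960.5 to 1925 CPM in nipple basal sums against 267 to 494 in ducts and 244 to 513 in TEBs, and all 8 genes of that list had UMIs in each location. The same list came to 892 to 2292 CPM in luminal sums of the nipple and to 129 to 632 in those of ducts and TEBs. The part of such RNA in the results was not tested, and with sums, fewer cells of a type and less RNA per cell cannot be told apart. At least 10 UMIs of the luminal keratin gene *Krt18* were found in 206 of the basal cells, and 166 had 10 of both *Krt5* and *Krt18*. Doublets, RNA from other wells and co-expression cannot be told apart here.

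Across the 15 fragments that held at least 5 cells of each epithelial class, 191 of 9762 genes (1.96%) were higher in the basal sum than in both luminal sums in every fragment, and 110 (1.13%) were lower. Of the 191 genes, 4 were markers of the rule (*Krt5*, *Krt17*, *Acta2* and *Mylk*) and 187 were not. The basal level exceeded the higher luminal level by a median of 2.50 on the log2 CPM scale over the 191, from 0.38 to 5.96, and by at least 4 in 26 genes. These were well expressed genes, with a median basal level of 187 CPM against 28.1 for all genes compared. The classes of a fragment come from 1 tissue piece, so that the count describes these fragments.

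Of these 187 genes, 95 (50.8%) differed across locations in basal cells by edgeR's quasi-likelihood test at an adjusted p of 0.05, against 1375 of 7185 genes tested (19.1%). The lowest mean lay in TEBs for 50 of the 95 genes, in the nipple for 39 and in ducts for 6, while the highest lay in ducts for 54, in TEBs for 25 and in the nipple for 16. The size of the basal to luminal difference itself differed by location in 27 (14.4%), where a class by location term was called in 499 of 9762 genes (5.11%). All 187 genes passed the filter on low counts, and they are better expressed than most genes tested, so that the shares are not set against each other as a test. Neither test called 89 of the 187. The gene lists below were chosen with earlier results of these data known, so that their shares of called genes are a description only.

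Lists were also drawn for each location alone, as genes with a basal level at least 1 log2 unit above the higher luminal class. Of 9762 genes compared, the nipple list held 997, that of ducts 835 and that of TEBs 661. ER+ luminal sums rested on 7 to 13 cells in the nipple and 22 to 43 elsewhere, whose part in these counts was not tested. All 3 lists shared 287 genes. They made up 28.8% of the nipple list, 34.4% of the duct list and 43.4% of the TEB list. Nipple and TEB basal cells shared 337 genes, 33.8% of the nipple list and 51% of the TEB list, and ducts and TEBs shared 427, 51.1% of the duct and 64.6% of the TEB list. The mean difference per gene correlated across 9762 genes with Pearson's r = 0.74 for nipple and duct, 0.60 for nipple and TEB and 0.70 for duct and TEB. Genes are not independent replicates, and each location's points share its libraries and depth.

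**Figure D1:**
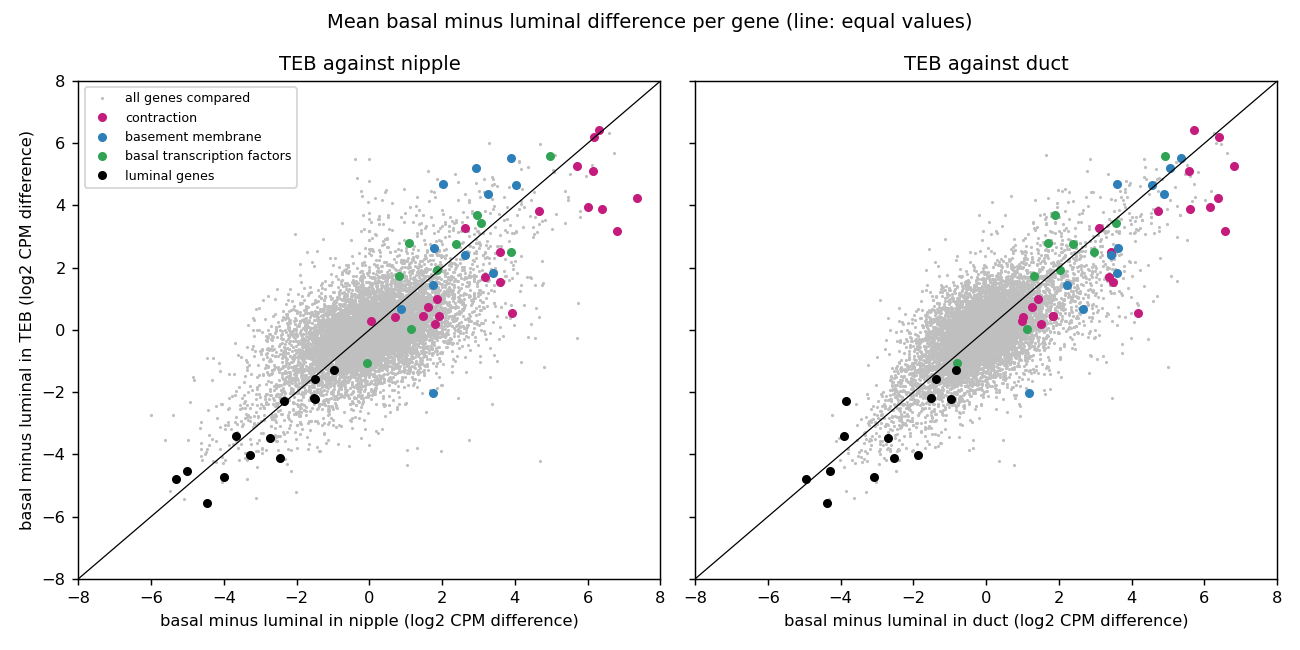
Mean difference of basal minus the mean of both luminal classes per gene (log2 CPM), TEB on the vertical axis against nipple (left) and duct (right), for 9762 genes, with the line of equal values. Contraction genes (pink) lie high on both axes and mostly below the line, *Col4a1* and *Col4a2* among basement membrane genes (blue) lie above it against the nipple, and luminal genes (black) lie at the negative end in all locations.

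The keratins of the rule were high in basal sums at each location and lowest in TEBs. *Krt5* came to 1640.5, 1527, 1296 and 1357 CPM in the nipple fragments, to 1482 to 1962 (median 1798) in the ducts and to 292 to 941 (median 420.1) in the TEBs. Luminal sums held at most 78.1 CPM. The nipple and duct fragments overlapped and all lay above the TEBs, with the nipple mean 2.91 times the TEB mean. *Krt14*, which pairs with keratin 5 in the filament, had means of 6079 ± 657 CPM in the nipple, 4421 ± 538 in ducts and 579 ± 201 in TEBs (SD, n = 4, 6 and 6). No 2 locations overlapped. ER- luminal sums of the nipple held 1432 to 2759.5 CPM of *Krt14* against 26.5 to 456 in ducts, and the basal sum was above both luminal classes in 14 of the 15 fragments. *Krt17* had means of 5490.4 ± 555, 5459.9 ± 792 and 1816 ± 612 CPM. The difference of *Krt5* from the luminal mean was 6.58 ± 0.95 log2 units in the nipple, 6.27 ± 0.84 in ducts and 6.33 ± 1.17 in TEBs, where mean luminal levels of *Krt5* were also lowest.

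*Krt15*, a keratin gene of basal epithelial layers that the rule did not use, was likewise lowest in TEBs. *Krt15* came to 777, 791, 1057 and 1061 CPM in the nipple fragments, to 1337 to 2618 (median 2343) in the ducts and to 91.5 to 565 (median 297) in the TEBs. All 3 locations were separate, ducts being 7.28 and the nipple 3.00 times above the TEBs (adjusted p = 4.36e-05, edgeR). The stress keratin genes *Krt6a* and *Krt16* were not higher in basal cells throughout. *Krt6a* was higher in ER+ luminal cells (465 to 1270.0 CPM) than in every basal sum of the same fragment, and *Krt16* was above both luminal classes in 6 of 15 fragments. Of the 3 keratin genes outside the rule, *Krt15* and *Krt16* (adjusted p = 0.0129, edgeR) differed across locations, against 19.1% of all genes tested. *Krt6a* did not pass the test.

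The contraction list held 21 genes, of which 11 were above both luminal classes in every fragment, 2 of them rule markers, against 1.96% of all genes. Its median difference was 3.01 log2 units above the luminal mean, against -0.01 over all genes compared. Smooth muscle actin (*Acta2*) and myosin light chain kinase (*Mylk*), both in the rule, had duct means of 8351 ± 856 and 812 ± 269.7 CPM against 2984 ± 791 and 85.5 ± 49.0 in TEBs. Outside the rule, 18 of 19 genes passed the filter on low counts and 16 of the 18 differed across locations, against 19.1% of all genes tested, 13 of these with the lowest mean in TEBs and 13 with the highest in ducts. The list's median nipple minus TEB difference was 1.22 log2 units, against -0.02 over all genes tested. *Des*, for the intermediate filament of muscle, and *Pdlim7*, for an actin-binding scaffold, did not pass the test.

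The regulatory light chain gene *Myl9* had the largest excess over the higher luminal class of the genes outside the rule. *Myl9* came to 809.9, 1374, 1547 and 1756 CPM in the nipple fragments, to 2087 to 3696 (median 2537) in the ducts and to 421 to 1161 (median 650.0) in the TEBs. Luminal sums held 0 to 86.0 CPM in ER+ and 0 to 48.8 CPM in ER- cells, and the lowest basal sum lay above the highest luminal sum. Ducts were 3.96 times above TEBs and 1.96 times above the nipple with no overlap (adjusted p = 7.09e-05, edgeR), whereas nipple and TEB fragments overlapped. The difference from luminal cells was 6.17 ± 0.64 log2 units in the nipple, 6.40 ± 0.81 in ducts and 6.20 ± 0.70 in TEBs. Its change between nipple and TEB was 0.16 (95% interval -1.05 to 1.36).

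Smooth muscle myosin heavy chain (*Myh11*) and calponin 1 (*Cnn1*), which bind actin in the contracting cell, had larger ratios between locations. *Myh11* came to 552, 413, 546 and 794 CPM in the nipple fragments, to 894 to 1116 (median 1015) in the ducts and to 10.6 to 69.2 (median 54.4) in the TEBs. No location overlapped another, ducts being 23.5 times and the nipple 13.4 times above the TEBs (adjusted p = 2.77e-09, edgeR). The basal sum was above both luminal sums in 14 of 15 fragments. *Cnn1* had means of 892 ± 95.1 CPM in the nipple, 1934 ± 491 in ducts and 103 ± 69.4 in TEBs (SD, n = 4, 6 and 6), again with no overlap (adjusted p = 3.89e-05, edgeR). Their basal minus luminal differences were 3.19 ± 1.80 and 4.24 ± 1.86 log2 units in TEBs and 6.80 ± 0.60 and 7.34 ± 0.54 in the nipple. The class by location term did not pass its test for either gene (adjusted p = 0.542 and 0.309, edgeR), with an interval of 0.31 to 4.78 for the nipple minus TEB change of *Cnn1*.

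Among the actin genes and actin-binding genes, the order of locations was not the same for each. Enteric smooth muscle actin (*Actg2*) came to 157, 165, 139.6 and 276 CPM in the nipple, 1279.9 to 2199.5 (median 1781) in ducts and 123 to 367 (median 157) in TEBs, so that it was 9.44 times higher in ducts than in the nipple (adjusted p = 4.11e-08, edgeR) while nipple and TEB overlapped. Transgelin (*Tagln*), an actin-binding protein of smooth muscle, had means of 751 ± 138, 2271 ± 664 and 370.4 ± 153 CPM in nipple, duct and TEB with no overlap (adjusted p = 2.26e-06, edgeR). Leiomodin 1 (*Lmod1*), which nucleates actin filaments, was instead highest in the nipple at 326 ± 43.6 CPM against 224 ± 54.7 in ducts, whose fragments overlapped with it, and 56.0 ± 33.3 in TEBs (adjusted p = 9.5e-07, edgeR). *Oxtr*, the receptor through which oxytocin triggers contraction, had 120 UMIs in nipple, 165 in duct and 14 in TEB basal sums, or means of 56.6 ± 21.1, 55.9 ± 19.5 and 3.21 ± 4.0 CPM (adjusted p = 4.78e-05, edgeR). All nipple and duct fragments lay above every TEB, of which 3 of 6 had no *Oxtr* UMI.

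Tropomyosins and filamin A are made in many cell types. *Tpm1* came to 1645, 2016, 2015 and 1938 CPM in the nipple, 1966 to 2607 (median 2229) in ducts and 757 to 1240.2 (median 1107) in TEBs (adjusted p = 7.88e-08, edgeR), with the TEBs below all other fragments. ER- luminal cells held 703 to 1566 CPM and ER+ cells 283 to 759. The basal excess was 1.47 ± 0.30 log2 units in the nipple, 1.82 ± 0.17 in ducts and 0.44 ± 0.33 in TEBs. This change passed the test of the class by location term (adjusted p = 5.18e-08, edgeR) and is the smallest p of that term among the basal genes named by rule. *Flna*, which crosslinks actin to the membrane, followed with 3.59 ± 0.80, 3.47 ± 0.46 and 1.53 ± 0.70 log2 units (adjusted p = 0.000238, edgeR), a call that was lost when each cell was thinned to 5000 UMIs (adjusted p = 0.208). *Tpm2*, with basal means of 3042 ± 125, 4052 ± 743 and 969 ± 187 CPM, had the smallest p across locations in the list (5.67e-14, edgeR), but its class by location term did not pass (0.123).

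**Figure D2:**
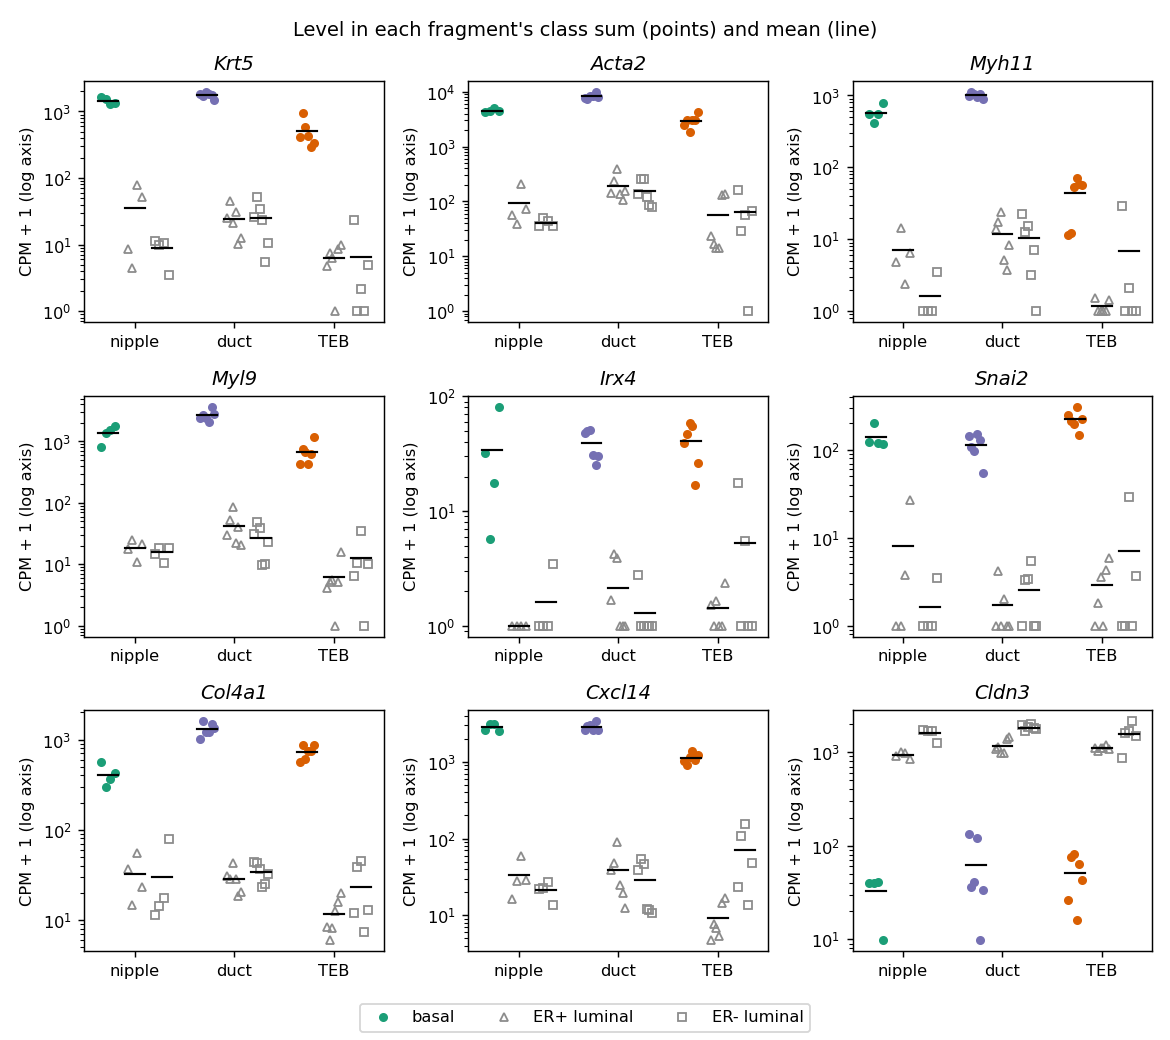
Level of 9 genes in each fragment's class sum (CPM + 1, log axis) by location, with filled circles for basal, triangles for ER+ luminal and squares for ER- luminal sums, and a line at the mean (nipple n = 4, duct n = 6, TEB n = 6, ER- luminal of TEB n = 5). *Krt5*, *Myl9*, *Col4a1* and *Cxcl14* lay above luminal sums at each location although their basal levels differed between locations, *Myh11* was lowest in TEBs, *Irx4* overlapped between locations and *Cldn3* was below luminal sums throughout.

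Smooth muscle genes are classically controlled through the CArG box, a site for serum response factor, and the 300 bases around each start site (250 before, 50 after, RefSeq on GRCm38.p6) were searched for it on both strands. Of 18 contraction genes with a promoter sequence, 2 held a box (11.1%), against 488 of 27025 promoters (1.81%), while of 127 genes above both luminal classes 5 did (3.94%). The 30 bases around the box, in capitals, are shown for both contraction genes and for 2 further actomyosin genes of the basal set. *Cbr2* and *Top1* of the basal set also held a box in this window and are not shown.
Myl9, chr2:156775293-156775322, plus strand: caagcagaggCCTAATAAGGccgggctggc
Vcl, chr14:20929161-20929190, plus strand: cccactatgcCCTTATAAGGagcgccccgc
Cnn2, chr10:79988534-79988563, plus strand: cgcttccacgCCTTATAAGGacatttgctc
Myl6, chr10:128493040-128493069, minus strand: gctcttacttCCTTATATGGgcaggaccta
The first base of the box lay 161 bases before the start site in *Myl9*, 227 in *Vcl*, for the adhesion protein vinculin, 56 in *Cnn2*, for calponin 2, and 50 in *Myl6*, for the essential light chain. A match describes letters only, and binding was not measured. For *Acta2*, *Tagln* and the other genes no match says only that the box is not within this window.

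Of 12 transcription factor genes of the basal layer listed, 10 could be compared. Of the 10, 2, *Snai2* and *Irx4*, were above both luminal classes in every fragment, against 1.96% of all genes. Across locations 2 of 10 passed the test, *Snai2* and *Sox9*, a share near the 19.1% of all genes tested. In the class by location term 0 of 10 passed, against 5.11% of all genes. *Irx4*, for an Iroquois homeobox factor, came to 31, 4.68, 16.6 and 80.4 CPM in the nipple, 24.3 to 50.4 (median 38.5) in ducts and 15.8 to 57.8 (median 42) in TEBs. These rest on 71, 110 and 118 UMIs. The locations overlapped (adjusted p = 0.954, edgeR), with a nipple minus TEB difference of -0.25 (95% interval -1.46 to 0.95) on the log2 scale. Its basal minus luminal difference was 3.06 ± 1.28, 3.56 ± 0.16 and 3.43 ± 0.86 log2 units.

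*Snai2*, for the factor Slug that holds cells in a basal state, was highest in TEBs, where most contraction genes were lowest. *Snai2* came to 122, 199.6, 118 and 115 CPM in the nipple fragments, to 53.0 to 149.9 (median 118) in the ducts and to 148 to 309.8 (median 219) in the TEBs (adjusted p = 0.00988, edgeR). Each pair of locations overlapped, with a duct minus TEB difference of -1.04 (95% interval -1.57 to -0.51) log2 units. *Trp63*, for the p63 factor, had 43 UMIs in the nipple, 47 in ducts and 231 in TEBs, or 22.1 ± 14.5, 17.6 ± 15.1 and 59.4 ± 24.7 CPM, and missed the threshold (adjusted p = 0.0513, edgeR), with a duct minus TEB difference of -1.83 (95% interval -3.08 to -0.58). It was above both luminal classes in 14 of 15 fragments, as were *Id4* and *Egr2*. *Sox10*, for a factor of glial and progenitor cells, was above both luminal classes in 5 of 15 fragments, at 72.3 to 213 CPM in ER- luminal sums and means of 133 ± 38.7, 126 ± 51.4 and 139 ± 53.5 in basal sums. *Sox9*, a factor of progenitors in many epithelia, was below both luminal classes in 10 of 15 fragments. Its basal mean fell from 299 ± 126 CPM in the nipple to 101 ± 48.5 in TEBs (adjusted p = 0.00134, edgeR).

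Hemidesmosomes and integrins anchor basal cells to the basement membrane. Of 8 such genes 3 were above both luminal classes in every fragment, against 1.96% of all genes compared. Across locations 5 of the 8 differed, against 19.1% of all genes tested, and 1, *Itgb1*, did so in the class by location term, against 5.11%. *Col17a1*, for the transmembrane collagen of hemidesmosomes, came to 341, 345, 383 and 367 CPM in the nipple, 267 to 493 (median 413) in ducts and 140.2 to 298 (median 218) in TEBs, with luminal sums at no more than 53.7 CPM. The nipple lay 1.65 times above TEBs without overlap (adjusted p = 0.00869, edgeR), which did not pass when cells with a class margin under 0.5 were left out (0.12). Its difference from luminal cells was 6.13 ± 0.31, 5.52 ± 0.42 and 5.30 ± 0.92 log2 units.

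*Itga3*, for the alpha subunit that binds laminin, was 2.43 times higher in duct than in nipple basal sums (359.8 ± 55.6 against 148 ± 48.1 CPM, adjusted p = 0.000399, edgeR), and TEBs at 179 ± 60.4 overlapped with the nipple. *Itgb1*, for the beta subunit it pairs with, was expressed in luminal cells too. Its basal excess was 1.17 ± 0.17 log2 units in the nipple, 1.51 ± 0.16 in ducts and 0.61 ± 0.18 in TEBs (class by location, adjusted p = 0.000235, edgeR). Against ER- luminal cells alone this call was lost (0.499). *Itga6* and *Itgb4*, whose products form the hemidesmosome integrin and serve to sort basal cells, were above both luminal classes in 12 and 11 of 15 fragments only, and neither passed the test across locations (adjusted p = 0.267 and 0.629, edgeR).

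The basement membrane genes of basal cells took different orders across locations. Of 12 genes listed 11 could be compared, 6 of them were above both luminal classes in every fragment, against 1.96% of all genes. Across locations 9 of 11 differed, against 19.1% of all genes tested, 4 with the lowest mean in the nipple and 5 in TEBs. Type IV collagen forms the network of the membrane. *Col4a1* came to 558, 295, 359.5 and 421 CPM in the nipple, 1009 to 1595 (median 1278) in ducts and 559 to 873 (median 743) in TEBs, so that all 3 locations were separate and the nipple was lowest (adjusted p = 3.11e-08, edgeR). *Col4a2* followed with 262 ± 94.2, 675 ± 127 and 572 ± 141 CPM (adjusted p = 6.69e-05, edgeR).

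Their excess over luminal cells was smaller in the nipple as well, at 3.88 ± 0.65 log2 units for *Col4a1* against 5.35 ± 0.48 in ducts and 5.51 ± 0.43 in TEBs, and at 2.93 ± 0.85 for *Col4a2* against 5.06 ± 0.58 and 5.20 ± 1.08. The class by location term gave adjusted p-values of 0.0355 and 0.0171 (edgeR). Against ER- luminal cells alone neither passed (0.486 and 0.225), nor did *Col4a1* with a class margin of 0.5 (0.0730). That of *Col4a1* was lost without nipple 2 (0.0640), nipple 3 (0.129), nipple 4 (0.146), duct 4 (0.0501), duct 6 (0.0536) or TEB 1 (0.0675), and that of *Col4a2* without nipple 1 (0.0647) or nipple 3 (0.101). Fibroblasts also make type IV collagen, and 75.6% of cells of the fibroblast class had a *Col4a1* UMI after thinning, against 81.4% of basal cells. The fibroblast list was highest in the nipple, in basal and in luminal sums, and the part of such RNA in these values was not tested.

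Laminin alpha chains had different orders of location. The alpha 1 chain gene *Lama1* came to 10.3, 18.7, 4.73 and 5.25 CPM in the nipple, 27.2 to 100.4 (median 42) in ducts and 38.3 to 199.6 (median 108) in TEBs, the nipple being lowest without overlap (adjusted p = 8.58e-05, edgeR), and no luminal sum exceeded 7.88 CPM. The alpha 5 chain gene *Lama5* went the other way, with 248, 168, 104 and 161 CPM in the nipple, 112 to 242 (median 158) in ducts and 7.88 to 28.7 (median 22.4) in TEBs, the nipple mean being 8.82 times the TEB mean (adjusted p = 4.11e-08, edgeR). In TEBs the basal level of *Lama5* was below the luminal one by 2.01 log2 units, whereas it was above by 1.74 ± 0.64 in the nipple and 1.18 ± 0.73 in ducts (class by location, adjusted p = 1.36e-06, edgeR). The alpha 3 chain gene *Lama3* had means of 119 ± 27.8, 206 ± 61.8 and 111 ± 26 CPM and a basal excess of 4.04 ± 1.61, 4.56 ± 0.46 and 4.67 ± 0.39 log2 units. Its test across locations (adjusted p = 0.0276, edgeR) was not passed without duct 2 (0.0713), duct 4 (0.0508) or duct 6 (0.115), or with a class margin of 0.5 (0.0615). *Lamb1* and *Lamc1*, the chains common to many laminins, were above both luminal classes in every fragment, and *Lamc1* was 2.60 times higher in ducts than in the nipple (adjusted p = 2.33e-05, edgeR).

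**Figure D3:**
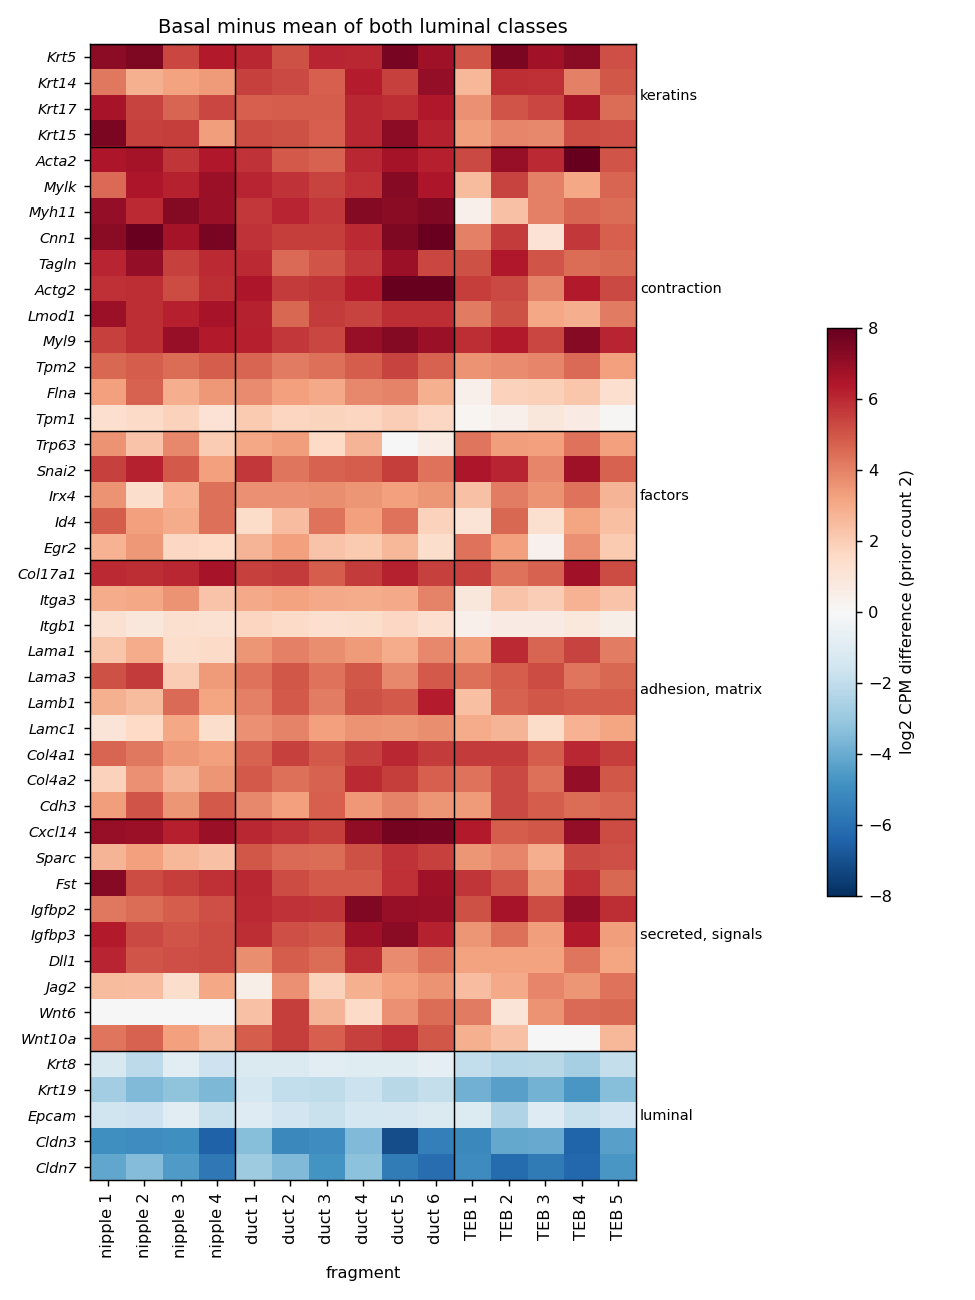
Difference of basal minus the mean of both luminal classes (log2 CPM, prior count 2) for 44 genes (rows, by role) in each of 15 fragments (columns), red where basal cells were higher and blue where they were lower. *Krt5*, *Acta2*, *Myl9*, *Col17a1*, *Cxcl14* and *Igfbp2* were red in every column, *Myh11*, *Cnn1*, *Flna* and *Tpm1* were paler in TEBs, and *Col4a1*, *Col4a2* and *Lama1* were paler in the nipple.

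Of 12 surface genes used to sort or trace basal cells, 10 could be compared. Of the 10, 1 was above both luminal classes in every fragment, against 1.96% of all genes. It was *Cdh3*, for P-cadherin, with means of 120.4 ± 41.8 CPM in the nipple, 46.5 ± 20.4 in ducts and 118 ± 39.9 in TEBs (adjusted p = 0.00421, edgeR) and a basal excess of 4.19 ± 0.88, 3.81 ± 0.52 and 4.54 ± 0.69 log2 units. Of the list, 4 of 10 differed across locations, against 19.1% of all genes tested. *Tspan8*, for a tetraspanin, came to 362, 187, 135 and 241 CPM in the nipple against 0 to 23.5 (median 2.55) in ducts and 0 to 2.85 (median 1.82) in TEBs, but ER- luminal cells held it everywhere (95.3 to 637 CPM). The basal level was thus 1.97 ± 0.88 log2 units above the luminal mean in the nipple, 2.45 below it in ducts and 3.91 below in TEBs (class by location, adjusted p = 2.28e-05, edgeR). *Cd200* was lower in basal cells, at 249 to 651 CPM in ER+ cells against at most 109 in basal sums, where the test across locations was not passed (adjusted p = 0.643, edgeR) and the nipple minus TEB difference was -0.22 (95% interval -1.72 to 1.27) log2 units.

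Secreted factors and signals gave 6 of 15 genes above both luminal classes in every fragment, against 1.96% of all genes, and 12 of 14 tested differed across locations, against 19.1%. The chemokine gene *Cxcl14* had the second largest excess over the higher luminal class of the genes outside the rule. *Cxcl14* came to 2608, 3148, 3115 and 2537 CPM in the nipple fragments, to 2592 to 3395 (median 2779.9) in the ducts and to 904 to 1393 (median 1116) in the TEBs. Nipple and duct fragments overlapped and all lay above the TEBs, the nipple by 2.52 times (adjusted p = 5e-11, edgeR). Its difference from luminal cells was 6.74 ± 0.35, 6.62 ± 0.95 and 5.68 ± 0.97 log2 units and did not pass the class by location test (adjusted p = 0.282, edgeR), with a nipple minus TEB change of 1.25 (95% interval 0.08 to 2.41).

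The insulin-like growth factor binding protein genes *Igfbp2* and *Igfbp3* were both highest in ducts and differed in the location that was lowest. *Igfbp2* came to 66.1, 59.3, 78.1 and 149 CPM in the nipple, 1144 to 2339 (median 1293) in ducts and 158 to 817 (median 400.2) in TEBs. The 3 locations were separate (adjusted p = 1.3e-05, edgeR). *Igfbp3* had means of 505 ± 107, 892 ± 255 and 115 ± 66.3 CPM (adjusted p = 1.67e-06, edgeR). The TEB mean was 4.81 times the nipple mean for the first, and the nipple mean 4.40 times the TEB mean for the second. Both exceeded luminal cells at each location, the smallest mean difference being 4.68 ± 0.40 log2 units in the nipple for *Igfbp2* and 4.19 ± 1.28 in TEBs for *Igfbp3*. Follistatin (*Fst*), which binds activins, was highest in the nipple at 825 ± 335 CPM against 393 ± 122 and 432 ± 152 (adjusted p = 0.0139, edgeR), which was not passed without nipple 1 (0.0738) or nipple 4 (0.0664).

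*Sparc*, for a collagen-binding glycoprotein, came to 2977, 3800.3, 3283 and 3515 CPM in the nipple, 2679 to 3950.2 (median 2909) in ducts and 1171 to 2146 (median 1653) in TEBs (adjusted p = 1.32e-07, edgeR). Luminal sums of the nipple held 406 to 676 CPM in ER+ cells against 75.4 to 153 in ducts. The basal excess was smallest in the nipple, at 2.74 ± 0.39 log2 units against 5.06 ± 0.50 in ducts and 4.17 ± 1.04 in TEBs (class by location, adjusted p = 0.000895, edgeR). Against ER- luminal cells alone the term did not pass (0.126). Every cell of the fibroblast class had a *Sparc* UMI, and the fibroblast list was highest in the nipple, whose part in these values was not tested. *Col14a1*, for a fibril-associated collagen, had basal means of 461 ± 133, 499.9 ± 96.7 and 224 ± 46.6 CPM (adjusted p = 9.56e-05, edgeR). Its class by location term (0.0335) was lost without any of 10 fragments in turn, duct 1, 4, 5 and 6 (0.0602 to 0.0828), nipple 2 and 4 (0.0530 and 0.0539) and TEB 1, 3, 4 and 6 (0.0562 to 0.0995), and by thinning (0.163). It was also not passed with a class margin of 0.5 (0.238), with 10 cells per sum (0.157) or against ER+ luminal cells alone (0.411).

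Notch ligands and Wnt genes, through which basal cells signal to their neighbours, were mostly at low levels. *Dll1* was above both luminal classes in every fragment, with means of 128 ± 43 CPM in the nipple, 99.0 ± 61.2 in ducts and 49.8 ± 27.4 in TEBs. Its adjusted p across locations of 0.0481 (edgeR) was lost without any of 11 fragments in turn (0.0531 to 0.125 without duct 2, 3 and 4, nipple 1, 3 and 4 and TEB 1, 2, 3, 5 and 6) and by thinning (0.169), with at least 10000 UMIs per cell (0.0670), a class margin of 0.5 (0.256), 10 cells per sum (0.115) or RLE scaling (0.0618). *Jag1* was lower in TEBs (52.6 ± 22.7 CPM) than in the nipple (186 ± 90.7) and ducts (182 ± 97.9) at an adjusted p of 0.000739 (edgeR). The class by location term of *Jag1* (0.0397) was lost without any of 11 fragments in turn (all ducts, nipple 4 and TEB 1, 2, 5 and 6, 0.0558 to 0.194). It was also lost with at least 10000 UMIs per cell (0.0764), a class margin of 0.5 (0.0886), 10 cells per sum (0.105) or against ER- luminal cells alone (0.287). *Jag2* showed means of 14.2 ± 7.26, 22.4 ± 10.8 and 34.4 ± 14.6 CPM and no call (0.356), the nipple minus TEB difference being -1.29 (95% interval -2.69 to 0.10) log2 units.

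*Wnt6* had 0 UMIs in the nipple, 137 in ducts and 229 in TEBs. With 3 UMIs taken as the floor of the summed nipple cells, for counting error only, it was at least 34-fold higher in ducts and at least 49.4-fold higher in TEBs (adjusted p = 0.000164, edgeR). *Wnt10a* came to 51.7, 70.2, 30.7 and 14.0 CPM in the nipple, 86.0 to 259 (median 153) in ducts and 0 to 17.0 (median 5.70) in TEBs, ducts being 3.81 times above the nipple without overlap (adjusted p = 6.47e-06, edgeR). Luminal sums held at most 4.75 CPM of the first and 5.73 CPM of the second. *Sfrp1*, for a secreted Wnt inhibitor, was highest in the nipple, at 143, 237, 194 and 349.7 CPM against 0 to 8.17 (median 5.82) in ducts and 3.31 to 85.1 (median 7.33) in TEBs (adjusted p = 7.81e-06, edgeR). It was above both luminal classes in 9 of 15 fragments.

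Some genes of the basal set passed neither test, and the 5 of these with the largest excess over luminal cells, chosen after their values were seen, were *Il17b*, *Cxcl12*, *Pdpn*, *Sbspon* and *Rcn3*. *Pdpn*, for the membrane mucin podoplanin, came to 72.3, 176, 194 and 126 CPM in the nipple, 88.4 to 185 (median 144) in ducts and 134 to 208 (median 152) in TEBs, while no luminal sum exceeded 29.3 CPM. The 3 locations overlapped, and the nipple minus TEB difference was -0.23 (95% interval -0.83 to 0.36) log2 units (adjusted p = 0.699, edgeR). *Rcn3*, for a calcium-binding protein of the secretory pathway, had means of 302 ± 60.9, 242 ± 48.2 and 276 ± 122 CPM, with a nipple minus TEB difference of 0.11 (95% interval -0.43 to 0.64). For the cytokine gene *Il17b* the interval was wide and did not hold 0, at -2.07 (95% interval -3.56 to -0.58), although its adjusted p was 0.0921 (edgeR), so that a missed threshold does not show equal levels. The chemokine gene *Cxcl12* and *Sbspon*, for a matrix protein, had nipple minus TEB differences of 0.92 (95% interval 0.28 to 1.55) and -0.60 (95% interval -1.69 to 0.50).

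Genes of the luminal layer were low in basal cells at each location. Of 13 such genes, 12 were below both luminal classes in every fragment, against 1.13% of all genes. *Krt18*, 1 of the 12, was a luminal marker of the rule, and the exception was the mucin gene *Muc1*. The median difference from the luminal mean was -3.04 log2 units. The tight junction genes *Cldn3* and *Cldn7* were among the 5 genes furthest below that were named by rule. *Cldn3* came to 39.3, 39.0, 40.2 and 8.74 CPM in the nipple fragments, to 8.84 to 132 (median 37.7) in the ducts and to 15 to 81.4 (median 52.2) in the TEBs. ER+ luminal sums held 838 to 1467 CPM and ER- sums 869 to 2139. The locations overlapped (adjusted p = 0.555, edgeR), with a nipple minus TEB difference of -0.68 (95% interval -1.90 to 0.54) log2 units. No class by location call was made (adjusted p = 0.764). *Cldn7* (47.3 ± 32.6, 75.4 ± 61 and 22.8 ± 10.4 CPM) and *Cldn4* (205 ± 118, 208 ± 118 and 169 ± 96.1 CPM) passed neither test, nor did *Epcam*, for an adhesion molecule of all mammary epithelium, at 875 ± 219, 1005 ± 199 and 745 ± 197 CPM.

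Of 10 luminal genes tested across locations 4 passed, against 19.1% of all genes tested. They were the keratin genes *Krt8*, *Krt19* and *Krt7* and *Cd24a*. *Krt8* came to 2742, 1993, 2706 and 1943 CPM in the nipple, 3234 to 4395 (median 3882) in ducts and 999 to 1366 (median 1299) in TEBs, with no overlap (adjusted p = 2.78e-12, edgeR). It lay below the luminal mean by 1.48, 0.97 and 2.21 log2 units in the same order (class by location, adjusted p = 3.21e-05, edgeR). *Krt19* had basal means of 576 ± 161, 1782 ± 467 and 355 ± 141 CPM (adjusted p = 7.88e-08 across locations and 1.56e-06 for class by location, edgeR). *Krt7* had means of 116 ± 77.6, 266 ± 119 and 64.6 ± 26.8 CPM, and its class by location term (0.0213) was lost without duct 1 (0.0510), duct 4 (0.0712) or duct 6 (0.0502). It was also not passed with a class margin of 0.5 (0.132), with 10 cells per sum (0.141) or against ER- luminal cells alone (0.505). In the fibroblast class 66.5% of cells had a *Krt8* UMI after thinning, 54.5% in the nipple, 91.9% in ducts and 71.9% in TEBs. This share was highest in ducts and lowest in the nipple, and basal *Krt8* was highest in ducts and lowest in TEBs. The part of RNA from other cells in these values was not tested. *Krt18* belonged to the luminal marker lists of the rule and was not tested, with basal means of 1002 ± 232, 1105 ± 169.9 and 271 ± 55.5 CPM.

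Of the other genes furthest below luminal cells, *Mboat1*, for a lipid acyltransferase, had 2 UMIs in nipple basal sums and was 18.3-fold higher in ducts (95% counting interval 4.79 to 155) and 15.2-fold higher in TEBs (3.98 to 129). These intervals do not cover the spread between fragments, nipple and TEB fragments overlapped, and the test across locations was not passed (adjusted p = 0.0788, edgeR). Its class by location term (0.00562, edgeR) was lost by thinning (0.446) and against ER- luminal cells alone (0.0661). *Gdpd1*, for a phosphodiesterase, and the predicted gene *Gm5480* were at or under 11.7 CPM in every basal sum and at 89.6 to 229 and 40.6 to 342 CPM in ER+ luminal sums. The prolactin receptor gene *Prlr*, an ER+ marker of the rule, had 9, 75 and 32 basal UMIs in nipple, ducts and TEBs, or at most 46.3 CPM against at least 703 in ER+ luminal sums.

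Of 11 genes of ER+ luminal cells compared, 1 (*Prlr*) was below both luminal classes in every fragment, as was 1 of 10 genes of ER- luminal cells (*Cd14*). The share over all genes was 1.13%, and both lists included markers of the rule, *Prlr* among them. *Csn3*, for kappa casein, came to 4.13, 39.0, 52 and 121 CPM in nipple basal sums, 25.6 to 232 (median 81.0) in ducts and 415 to 1129 (median 759.9) in TEBs (adjusted p = 0.000403, edgeR), while ER- luminal sums held 839 to 6014 CPM. Its class by location term (0.0121, edgeR) was not passed with at least 10 cells per sum (0.0730) or against ER+ (0.102) or ER- (0.119) luminal cells alone. *Trf*, for transferrin, was highest in nipple basal sums (127 ± 48.0 CPM against 26.4 ± 12.5 and 16.7 ± 17.2), where ER- luminal sums were lowest (0 to 264 CPM), and its term (0.0051, edgeR) was not passed with at least 10 cells per sum either (0.0711) or against ER- luminal cells alone (0.0626). *Mfge8*, for a milk fat globule protein, was highest in ducts at 1603 ± 209.8 CPM against 546 ± 75.1 in the nipple and 850.4 ± 238 in TEBs (adjusted p = 5.52e-08 across locations and 0.000738 for class by location, edgeR). Of 10 immediate early genes, which rise when tissue is dissociated, 1 (*Jun*) differed across locations in basal cells, against 19.1% of all genes tested. The summed level of the list was 2309 to 2494 CPM in the nipple, 1761 to 3849 in ducts and 2656 to 4942 in TEBs.

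At the level of single cells, thinned to 5000 UMIs each so that depth was equal, shares of cells were compared with the sums. A *Krt5* UMI was found in 92.1% of nipple, 95.1% of duct and 59.7% of TEB basal cells, against 5.12% of the fibroblast class, which should lack it. At full depth the basal share was 92.0% (median 24816 UMIs per cell) and that of fibroblasts 25.2% (median 36326). *Myh11* was found in 63.4%, 94.3% and 19.5% of the thinned cells (fibroblast class 2.36%) and *Acta2* in 92.1%, 100% and 100% (30.3%). In TEB cells *Cnn1* was found in 24.7% and *Mylk* in 20.8%. Not all contraction genes had a low share there. *Myl9* was found in 78.2%, 99.2% and 85.7% of nipple, duct and TEB cells (fibroblast class 30.3%). *Tagln* was found in 70.3%, 97.6% and 75.3% (5.51%). *Acta2* and *Mylk* helped to choose the cells, and a cell with no UMI at this depth is not shown to lack the transcript.

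The shares of *Trp63* and *Snai2* were highest in TEB cells. *Trp63* was found in 7.92%, 8.13% and 27.3% of nipple, duct and TEB cells (0.394% of fibroblasts) and in 26.9% of basal cells at full depth. *Snai2* was found in 27.7%, 27.6% and 55.8% (9.84% of fibroblasts). *Cxcl14* was found in 95%, 94.3% and 92.2%, but 39.8% of the fibroblast class held it too, 61.2% in the nipple and 9.38% in TEBs. Cells of a fragment are not independent, and no test was made on cells.

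**Figure D4:**
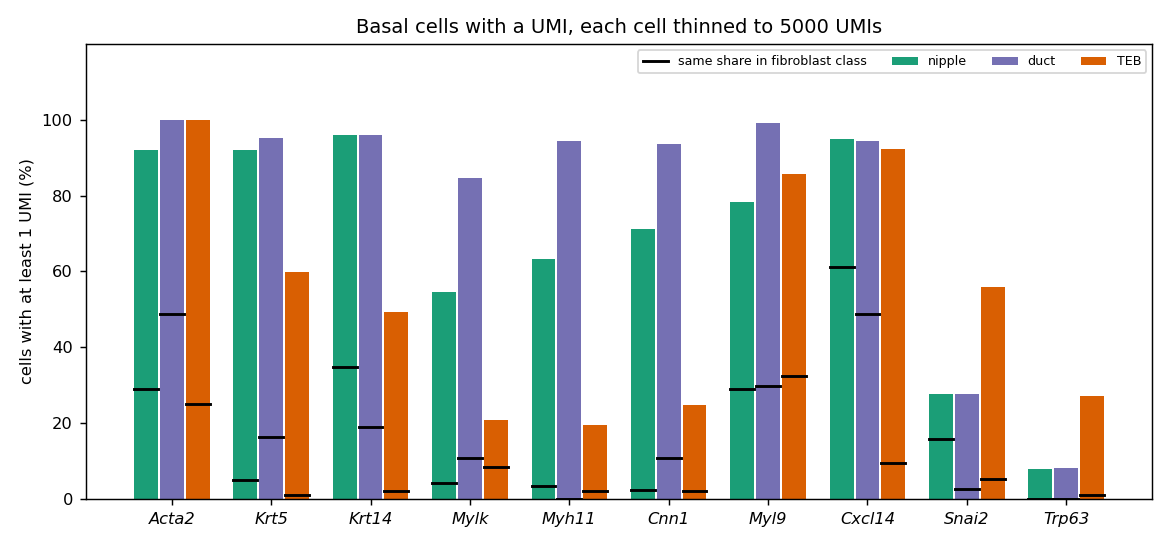
Share of basal cells with at least 1 UMI of 10 genes after thinning each cell to 5000 UMIs, by location (bars from 0, nipple 101, duct 123 and TEB 77 cells), with a black line at the share in the fibroblast class of the same location. *Acta2* and *Cxcl14* were found in 92.1% or more of cells at each location. The contraction genes *Mylk*, *Myh11* and *Cnn1* were found in 24.7% or fewer of TEB cells, but *Myl9* in 85.7%. *Snai2* and *Trp63* were found most often in TEB cells.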

How the data were processed

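Single-cell 3' RNA-seq with UMIs was analysed for 16 fragments. The authors deposited a table of UMI counts per gene and cell, which are raw and not normalised. Their processing notes name FastQC, Trim Galore, UMI-tools, STAR and featureCounts, and versions are not given in the sources used here. Cells with at most 5% spike-in UMIs, 5000 to 120000 UMIs and 200 to 6000 genes were kept, 1317 of 1419. Fragments were grouped by the labels and numbered within a location in accession order. Doublets were not called, and cells with UMIs of both layers are counted in the report. The members and gene lists were chosen with earlier results of these data known.

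Counts were summed per fragment and class where at least 5 cells were present. Depth sets the precision. Intervals of log2 differences come from the edgeR fit over fragments, whereas counting intervals and floors cover counting error only. Differences across locations were tested with edgeR 4.0.16 by its quasi-likelihood test with robust fitting, after TMM scaling and the filterByExpr filter. Benjamini-Hochberg adjustment ran over all genes tested, with a threshold of 0.05, in R 4.3.3. The class by location term used the fragment as a block and compared basal cells with the mean of both luminal classes. Fragment differences were taken on log2 CPM with a prior count of 2. Depth was compared by exact permutation tests. Scripts were tested on simulated data. Python 3.11.15, numpy 2.4.6, pandas 2.3.3 and scipy 1.17.1 were used.

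Genes named in the text were, at 50 CPM or more on the higher side, the 10 furthest above and 5 furthest below both luminal classes in every fragment, those with the smallest class by location p and the smallest range between location means, members of the lists, and 5 genes chosen after their values were seen. Promoter sequences were RefSeq on GRCm38.p6, matched by symbol. Alternatives were DESeq2 1.42.0, testing without the low-count filter, scaling by RLE, other cell filters, a class margin of 0.5, 10 cells per sum, thinning to 5000 UMIs, each luminal class alone and leaving out each fragment.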

Additional observations from a re-analysis of the deposited data

Results flagged for a closer look

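Among 159 groups of 4 to 6 basal sums checked, 10 had 1 fragment far from the others, and chance flags about 1 in 20 groups. In the nipple these were *Snai2* in nipple 2 (199.6 CPM, next 122), *Egr2* in nipple 1 (70.2, next 31.5), *Epcam* in nipple 3 (1204, next 773) and, on the low side, *Cldn3* in nipple 4 (8.74, next 39.0). In ducts they were *Krt15* in duct 6 (1337, next 2168) on the low side, and on the high side *Lama1* in duct 2 (100.4, next 46.1), *Tspan8* in duct 1 (23.5, next 5.45), *Wnt6* in duct 2 (147, next 58.5) and *Igfbp2* in duct 5 (2339, next 1511). In TEBs it was *Krt19* in TEB 6 (636, next 344).

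The difference between basal and luminal cells itself differed between locations, by edgeR's class by location term, in 17 of the genes named in the report. Among contraction and adhesion genes the adjusted p was 5.18e-08 for *Tpm1*, 0.000238 for *Flna* and 0.000235 for *Itgb1* (edgeR). Among matrix genes it was 1.36e-06 for *Lama5*, 0.0355 for *Col4a1*, 0.0171 for *Col4a2*, 0.000895 for *Sparc* and 0.0335 for *Col14a1*. It was 2.28e-05 for *Tspan8* and 0.0397 for *Jag1*. Among luminal genes it was 3.21e-05 for *Krt8*, 1.56e-06 for *Krt19*, 0.0213 for *Krt7*, 0.00562 for *Mboat1*, 0.0121 for *Csn3*, 0.0051 for *Trf* and 0.000738 for *Mfge8*. The sizes of these differences stand in the report, and their causes were not tested.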

How the results depend on the processing

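For the named genes, no called difference changed direction in its largest contrast between locations under the alternatives run. Changes of direction were not followed for differences that had not passed a test. Thinning each cell to 5000 UMIs left fewer genes to test and gave 616 of 2265 genes across locations (27.2%), of which 559 were among the 1375 of the full data, 237 of 3322 in the class by location term, and 96 above and 41 below both luminal classes. With at least 10 cells per sum 313 genes were above and 233 below both classes, with fewer fragments compared. With a class margin of at least 0.5, 1025 of 6990 genes differed across locations (14.7%), and 936 of the 1375 calls were kept (68.1%). Without cells richer in pericyte genes than in *Krt5* and *Krt14*, 166 genes were above both classes. The class by location count of 499 became 326 with a class margin of at least 0.5, 775 with DESeq2 and 199 against ER- luminal cells alone, and the cause was not tested. Leaving out 1 fragment at a time gave 1121 to 1371 genes across locations, 403 to 467 in the class by location term, 186 to 223 above and 109 to 143 below both classes. The nipple minus TEB difference in UMIs per cell was -25071.4 to -18756.1 over these, and its test was not passed without nipple 1 (-20142.9), nipple 2 (-22062.2) or nipple 3 (-20655.4), where fewer fragments limit the exact p. For the named genes, calls across locations were kept or stayed absent in 1512 gene and setting pairs, lost in 23 and gained in 24, and those of the class by location term in 1694, 56 and 23. The difference from the higher luminal class stayed within 1 SD in 1814 pairs and moved by more in 26. No gene above or below both luminal classes in every fragment changed sign, and changes of sign in other genes were not counted. The sample titles carry numbers whose meaning no label gives, of which ducts and TEBs share 2 and the nipple shares 0 with them, so that a replicate block could be fitted only for duct against TEB over 4 fragments. This fit was chosen after seeing the data, has 1 residual degree of freedom and called 102 of 5703 genes, against 171 in these 4 fragments without the block and 685 of 5363 over all 12 duct and TEB fragments. Deviations of same-numbered fragments from their location means correlated across genes with r = -0.00846 and 0.0175, against 0.00435 and 0.0434 for differently numbered pairs. All nipple titles start with a digit that no duct or TEB title has. A grouping by that digit therefore cannot be told apart from location for the nipple. The class by location term already has the fragment as a block. Depth limits genes with few UMIs such as *Oxtr*, *Trp63* and *Jag2*.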
